A study of Kluyveromyces marxianus and Saccharomyces cerevisiae with 12 samples.

Results

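The wine yeast *Saccharomyces cerevisiae* EC1118 had 92 loci that were low at 6 h of an alcoholic fermentation and higher in mean level at 20 h. They were chosen from 6017 loci whose identifiers begin with EC1118_ and end in g, out of 6461 *S. cerevisiae* loci in all. A locus was a member if its group mean was under 10 FPKM at 6 h and at least 20 FPKM at 20 h, and if the 20 h mean plus 1 was at least 4 times the 6 h mean plus 1. FPKM counts the sequenced fragments of a locus, scaled to its length and to the library's total. EC1118_1M3_2795g and EC1118_1P2_2718g met these limits and were left out by the rule. The 25 loci in the last 80 kb of the contig that carries the 1O4 tags were also left out, and 0 of them met the limits.

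EC1118 is a commercial wine strain. Each time had 3 samples, labelled as replicates 1, 2 and 3, and the labels do not say whether these came from separate cultures. All were grown at 25 °C in a medium with sugars at 230 g/l, assimilable nitrogen at 200 mg/l (amino acids and ammonium) and phytosterols at 10 mg/l. No treatment or mutation separates the groups, so the fermentation time is what the labels give as their difference. The series also holds *Kluyveromyces marxianus* samples, which have other loci and were not used here.

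In a wine fermentation, yeast cells first divide and take up the nitrogen of the must. Growth then slows while sugar is still present and ethanol accumulates. Yeast is known to answer this change of conditions with stress response, storage carbohydrate and alternative nutrient genes, many of which are kept low in growing cells. Which of the 92 loci belong to such pathways cannot be said here. The tables pair 0 of the 92 with a gene name, 0 of the 6017 tags matched the reference annotation of the laboratory strain, and 0 of 126 symbols listed for stress, nitrogen, sugar, iron, cell wall and vitamin genes named a locus in the tables. The loci are therefore described by tag, position and level, with no role given.

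The largest recovered fragment total was that of replicate 1 at 6 h, a sum over 13 tables. Fragment totals recovered from the FPKM intervals, in units of 1000000 fragments (M), were 21.6 M in replicate 1, 9.34 M in replicate 2 and 1.51 M in replicate 3 of the 6 h samples. The 20 h samples had 7.67, 6.39 and 5.498 M. The value of 1.51 M covers 1 of the 3 tables of its sample. The depth of the other 2 tables of that sample is unknown, so the samples cannot be ranked by depth. How the tables of a sample differ is not stated, so a sum over them may not be the depth of a sample. Across loci, Spearman's rho reached 0.980 for the 6 h replicates 2 and 3, and 0.979 for the 20 h replicates 1 and 2. It was 0.953 and 0.948 between replicate 1 and the other 6 h samples, and 0.948 and 0.941 between replicate 3 and the other 20 h samples.

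**Figure D1:**
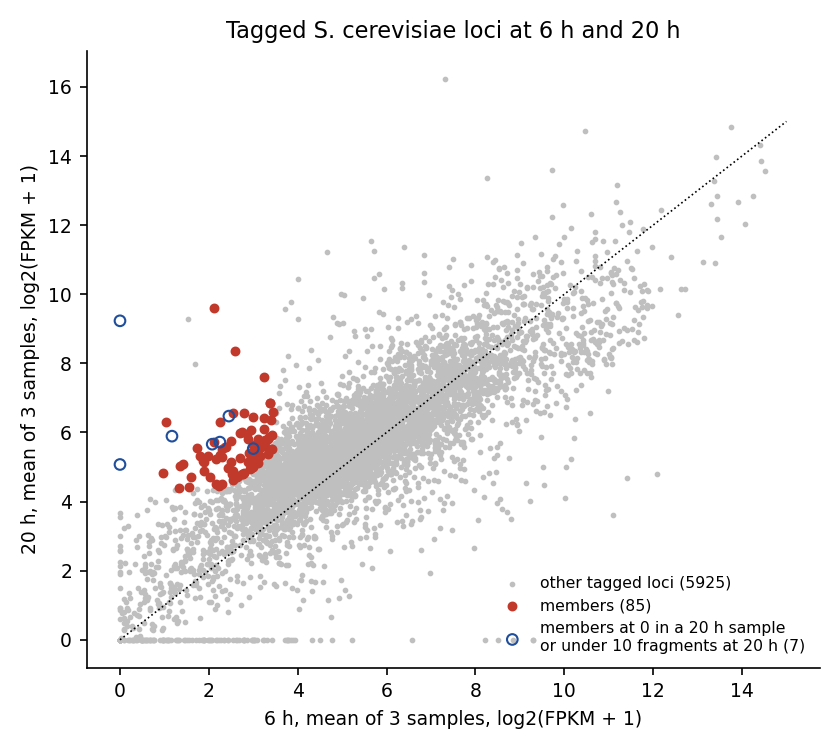
Mean of 3 samples at 6 h (horizontal) and at 20 h (vertical), both as log2(FPKM + 1), for tagged loci. Red points are 85 members, blue rings are 7 members at 0 in a 20 h sample or with under 10 fragments at 20 h, grey points are the other tagged loci, and the dotted line marks equal levels. The members fill the upper left corner that the rule cuts out, and the highest red point is at 776 FPKM at 20 h.

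The members were low rather than off at 6 h. Of 92, 85 were above 0 in every 6 h sample and 2 were at 0 in all of them. The 6 h means ran from 0 to 9.94 FPKM with a median of 5.62, and 40 were under 5 FPKM. The 20 h means ran from 20.1 to 776 FPKM with a median of 40.8. Only 6 were at least 100 FPKM, so most members reached a level near the median of all tagged loci at 20 h, which was 41.9, 39.96 and 46.9 FPKM in replicates 1, 2 and 3. The ratio used by the rule had a median of 6.87. It was at least 8 for 41 members and at least 16 for 10; without 7 members whose rise was unsteady or rested on few fragments, these counts were 35 and 6.

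Few loci that were low at 6 h made this change. Of 1198 tagged loci with a 6 h mean under 10 FPKM, 760 were still under 10 FPKM at 20 h, 235 were between 10 and 20, and 203 were at 20 or more. Of the last group 109 had a ratio under 4. A ratio of at least 4 was found at 143 of the 1198 low loci (11.9%) and at 198 of the tagged loci with 10 FPKM or more at 6 h (4.11% of those). Such a ratio was thus more frequent among loci chosen as low at 6 h. The 6 h mean both sets this group and enters the ratio, so nothing more is read from it. Of the 143 loci, 49 were still under 20 FPKM at 20 h.

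The limma test covered 5712 loci, all 92 members among them. At an adjusted p under 0.05 (Benjamini-Hochberg) it called 60.3% of them in either direction and 39.7% as higher at 20 h; of the members it called 87, all as higher. In 45.3% of the tested loci every 20 h sample lay above every 6 h sample, and in 87 of the 92 members. The rule used the same contrast, so nothing is read from these member counts. The median log2 change was 2.66 over the members and 0.30 over all loci tested. Of the called loci 2268 were higher and 1176 lower at 20 h. When samples were scaled to a common median ratio these became 1697 and 1755, a shift of 0.32 on the log2 scale. The members' median was then 2.35, and 58 of the 92 still met the rule.

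At the limits of the rule the choice was fine-grained. EC1118_1O4_5050g, at 9.94 FPKM at 6 h, and EC1118_1L7_0694g, at 9.79, were just inside, and EC1118_1N9_1882g, at 10.1, and EC1118_1M3_0155g, at 10.3, were just outside. At 20 h EC1118_1H23_0067g, at 20.1 FPKM, and EC1118_1J19_1145g, at 20.3, were inside, while EC1118_1C17_0089g, at 19.97, and EC1118_1O4_2025g, at 19.7, were outside. By the ratio EC1118_1B15_3158g, at 4.01, and EC1118_1K5_3730g, at 4.03, were inside, and EC1118_1D0_5633g and EC1118_1K5_2828g, both at 3.98, were outside.

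**Figure D2:**
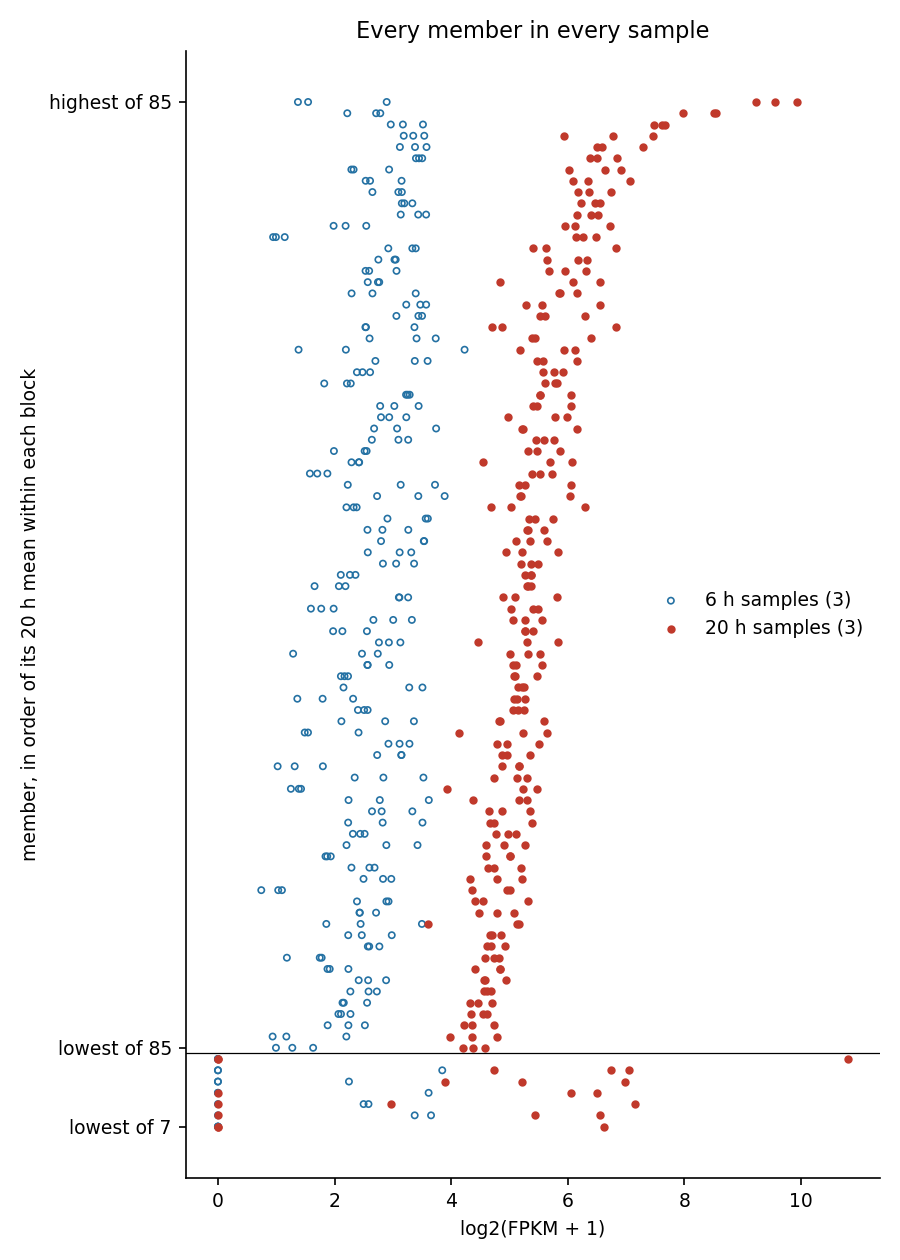
Every member in every sample as log2(FPKM + 1), with 1 row for each of the 92 loci, 6 h samples as blue rings and 20 h samples as red points. Above the line are 85 members in order of their 20 h mean, in which the times do not overlap; below it are 7 members at 0 in a 20 h sample or with under 10 fragments at 20 h.

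The member with the highest 20 h mean was EC1118_1C17_0199g, a short locus of 240 nt (chromosome III of the tables, 29259 to 29498). It was at 1.59, 1.92 and 6.44 FPKM in replicates 1, 2 and 3 at 6 h and at 601, 750 and 978 FPKM at 20 h. The times are far apart, with means of 3.32 ± 2.71 and 776 ± 190 FPKM (SD, n = 3). Its 6 h level had 6.00 recovered fragments, and its 20 h level 859. The 6.00 leave out the tables of replicate 3 whose depth is unknown, of which 1 was above 0. With so few fragments at 6 h the ratio of 180 is imprecise. The 20 h fragments were 339, 328 and 193 in replicates 1, 2 and 3, so replicate 3 had the fewest fragments and the highest FPKM. How far the 20 h level depends on the scaling for a locus this short was not tested. For comparison, the left-out locus EC1118_1M3_2795g had a mean of 628 FPKM at 20 h and EC1118_1P2_2718g of 249 FPKM, from 1.89 and 2.24 FPKM at 6 h.

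EC1118_1D22_0309g (1D22 contig, 53910 to 57050, 3141 nt) rose from 3.66, 5.56 and 5.90 FPKM at 6 h to 372, 250 and 362 FPKM at 20 h. This is a long locus with 33072 fragments at 20 h and 740 recovered ones at 6 h. Unlike for the locus before it, both levels are thus backed by many fragments. Its means were 5.04 ± 1.21 and 328 ± 67.5 FPKM (SD, n = 3). EC1118_1L10_0738g (1L10 contig, 142680 to 144251) was at 6.81, 8.02 and 10.5 FPKM at 6 h, with replicate 3 above the limit of 10, and at 178 FPKM, 202 FPKM and 196 FPKM at 20 h. It varied little at 20 h, with a coefficient of variation (CV, the SD as a percent of the mean) of 6.33%.

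EC1118_1I12_0089g (chromosome IX of the tables, 15685 to 16938) was among 9 members with a 6 h mean under 2 FPKM, and it had 2654 fragments at 20 h. It was at 0.993, 1.21 and 0.927 FPKM at 6 h and at 75.4, 69.5 and 88.9 FPKM at 20 h. All 6 h samples lay near 1 FPKM, and the ratio was 38.6. The next locus in coordinate order, EC1118_1I12_0100g, was at 2.66 FPKM at 6 h and 4.08 FPKM at 20 h, and the one before it, EC1118_1I12_0078g, at 30.8 and 36.3 FPKM, so both neighbours stayed near their 6 h level. Beside EC1118_1C17_0199g, EC1118_1C17_0188g went from 62.0 to 145 FPKM and EC1118_1C17_0210g from 0.737 to 14.7 FPKM. Beside EC1118_1L10_0738g, EC1118_1L10_0727g went from 17.6 to 37.7 FPKM and EC1118_1L10_0749g from 58.3 to 112 FPKM. Loci beside EC1118_1J11_1398g went from 16.2 to 7.41 and from 96.5 to 131 FPKM. Those beside EC1118_1E8_2278g went from 90.3 to 40.1 and from 21.6 to 44.4 FPKM.

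Among the other members with high means, EC1118_1M3_1695g varied widely at 20 h, at 60.2, 176 and 109 FPKM, from 9.20, 10.6 and 8.11 FPKM at 6 h. Replicate 2 was the highest sample there. EC1118_1K5_1277g was at 95.8, 89.8 and 156 FPKM at 20 h and EC1118_1D0_1420g at 80.5, 67.4 and 133 FPKM, both highest in replicate 3. EC1118_1J11_1398g went the other way, at 119, 98.8 and 64.3 FPKM, lowest in replicate 3. EC1118_1O4_5050g was at 89.6, 82.8 and 114 FPKM. In all 5 loci every 20 h sample was above every 6 h sample. EC1118_1E8_2278g, with a ratio of 16.5, was at 2.96, 4.84 and 3.56 FPKM at 6 h and at 68.5, 61.2 and 104 FPKM at 20 h.

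The steadiest members at 20 h were moderate in level. EC1118_1M3_4038g was at 40.2, 39.0 and 38.7 FPKM, a CV of 2.04%, after 3.21, 3.56 and 2.16 FPKM at 6 h. EC1118_1D0_1662g followed with a CV of 3.70% and EC1118_1M3_1992g with 3.97%.

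For 7 members the mean hides that a rise was not seen in each sample or rests on single fragments. Each of these was at 0 in a 20 h sample or had under 10 fragments over all 20 h tables; this class was made after the values were seen. All 5 loci under 200 nt among the members are in it. EC1118_1G1_4390g (chromosome VII of the tables, 710113 to 710241, 129 nt) has the largest ratio of all members and the second highest 20 h mean, 600 FPKM. It was at 1799 FPKM in replicate 2 at 20 h and at 0 in the other 5 samples, and that value came from 2 fragments, 1 in each of 2 of 6 tables. In a locus this short a single fragment was worth 5456 FPKM in 1 table and 5340 in another.

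EC1118_1M3_3422g (138 nt) was at 98.0 FPKM in replicate 1 at 20 h from 1.00 fragment, and at 0 elsewhere. EC1118_1M3_4533g (144 nt) was at 89.5, 65.7 and 0 FPKM at 20 h from 2.99 fragments. EC1118_1K5_0639g (153 nt) was at 25.6, 106 and 131 FPKM from 5.00 fragments, and EC1118_1B15_3697g (165 nt) at 13.9, 125 and 36.3 FPKM from 8.99. At 6 h the last 3 of these loci had 1.00 fragment each, and EC1118_1G1_4390g and EC1118_1M3_3422g had 0; a difference between the times was not measured at this depth, and no fold is given for them. EC1118_1K5_0639g and EC1118_1B15_3697g are among the 87 members called by limma and among the 87 without overlap between times, which shows how little depth such a call can rest on.

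The other 2 of the 7 overlap a longer locus and flipped between a value and 0 among the tables of a single sample. EC1118_1G1_4819g (chromosome VII of the tables, 781703 to 782314, 612 nt) shares 584 nt with EC1118_1G1_4808g (1245 nt). In replicate 2 at 20 h, 3 tables listed it at 0 and 3 at 179, 197 and 184 FPKM. In the tables where it was 0, EC1118_1G1_4808g was at 677, 674 and 675 FPKM, and in the others at 542, 498 and 524 FPKM. In this sample the longer locus was lower in the tables where the member had a value. In replicate 3 at 20 h the member was at 0 in all 3 tables, with the longer locus at 708, 700 and 701 FPKM.

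EC1118_1K5_1585g (chromosome XI of the tables, 271561 to 272169, 609 nt) shares 511 nt with EC1118_1K5_1596g (1305 nt). It was at 0 in all 6 tables of replicate 2 at 20 h and at 128, 133 and 164 FPKM in the tables of replicate 3. At 6 h the replicate 2 values of this member and of EC1118_1G1_4819g came only from a table with 0.082 M fragments. The longer loci had means of 21.8 FPKM at 6 h and 67.8 FPKM at 20 h for EC1118_1K5_1596g, and of 93.0 and 620 FPKM for EC1118_1G1_4808g. How fragments that fall in both loci were assigned is not given in the sources used here, so for these members the level of the locus cannot be told apart from that of its partner. Without the 7 members 85 remain. All 85 were called higher, beside 39.7% of all loci tested, and had no overlap between times, beside 45.3%; the rule used this contrast, and nothing is read from it. The 85 still hold EC1118_1D0_1673g, which also switched between 0 and a value: it was above 0 in 4 of 6 tables of replicate 2 and in 1 of 3 of replicate 3 at 20 h. With the median of the tables in place of the mean, its log2 change was 0.70 instead of 2.03, and members called higher were 84 instead of 87. Others of the 85 switched at 6 h. EC1118_1E8_1123g was above 0 in 9 of 22 tables at 6 h, with 247 recovered fragments. EC1118_1J19_0232g was above 0 in 13 of 22, with 140 recovered fragments. Both fragment numbers leave out the tables of replicate 3 whose depth is unknown. The tables at 0 enter their 6 h means of 3.89 and 2.68 FPKM, and so their ratios of 8.07 and 9.75.

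**Figure D3:**
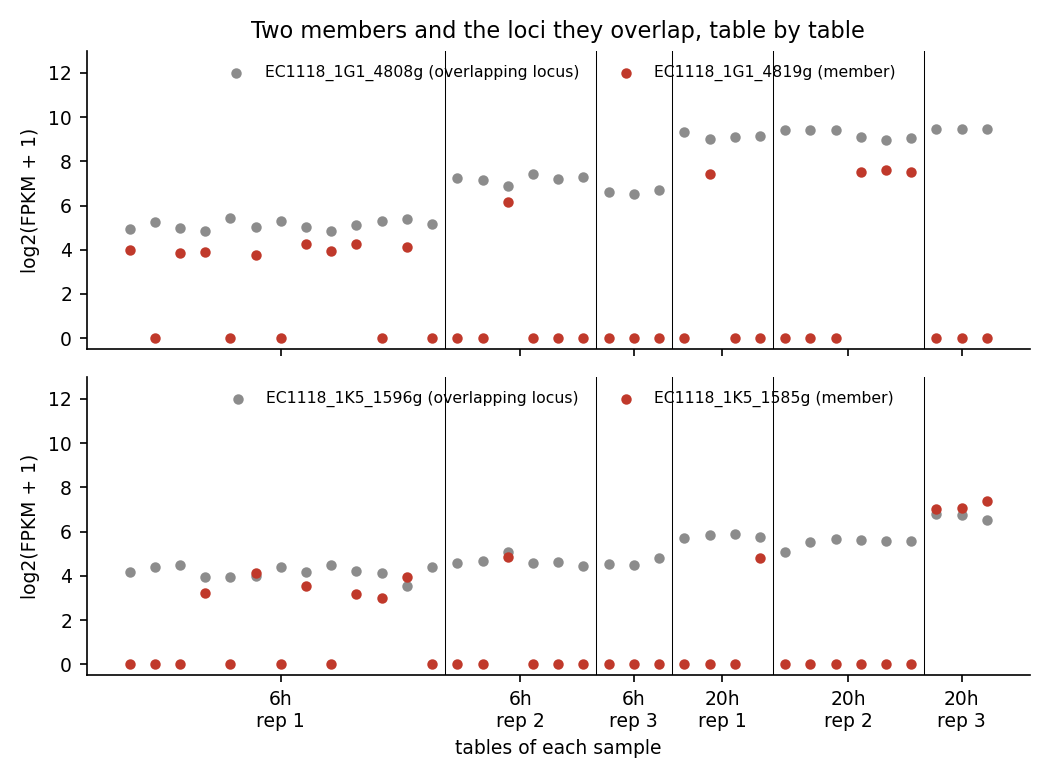
FPKM of 2 members (red) and of the longer loci they overlap (grey) in each of the 35 tables, as log2(FPKM + 1), grouped by sample with vertical lines between samples. The grey points are above 0 in every table, while the red points switch between 0 and a value within a sample, as in replicate 2 at 20 h for EC1118_1G1_4819g, with 3 tables at 0 and 3 at 179 to 197 FPKM.

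Overlap with another annotated locus was no more common among members than among all tagged loci, at 16.3% (15 of 92) against 16.6% (998 of 6017). Members overlapped each other at 2 places. EC1118_1E8_2773g and EC1118_1E8_2784g share 245 nt and had 20 h means of 27.3 and 32.7 FPKM. EC1118_1D0_1662g and EC1118_1D0_1673g share 278 nt; the longer, EC1118_1D0_1662g, was at 37.2, 36.0 and 34.5 FPKM at 20 h and the shorter at 34.9, 34.1 and 11.1 FPKM. Since strand is not given for the counting, the levels of overlapping loci cannot be told apart. EC1118_1C17_0089g, which missed the 20 h limit, lies wholly within the member EC1118_1C17_0078g.

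At 20 h the 85 members followed the general order of the samples. Replicate 3 was the highest of the 3 samples at 57 of 85 (67.1%), against 64.3% of the 4375 other tagged loci with a 20 h mean of at least 20 FPKM. The spread was wider at members. Their median CV was 21.0%, against 15.3% at the other loci. Replicate 3 was at least 1.5 times the mean of replicates 1 and 2 at 28.2% of members and 16.3% of the other loci, and below that mean by the same factor at 11.8% and 5.26%. Replicates 1 and 2 were within 1.5-fold of each other at 82 of the 85. The rule used these 20 h values, and a high value in 1 sample helps a locus to become a member. The other loci were not matched for level or ratio. These values are a description with no test, and nothing more is read from them.

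**Figure D4:**
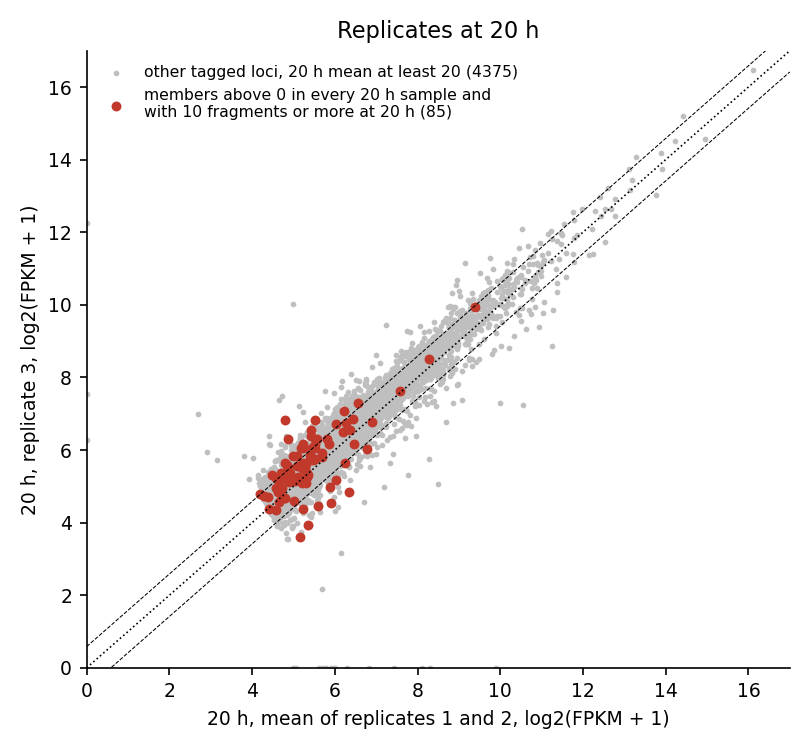
Level at 20 h in replicate 3 against the mean of replicates 1 and 2, both as log2(FPKM + 1). Red points are 85 members, grey points 4375 other tagged loci with a 20 h mean of at least 20 FPKM, the dotted line marks equality and the dashed lines a factor of 1.5; 24 members lie above the upper dashed line and 10 below the lower.

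The 10 members that were lower in replicate 3 form a distinct list. EC1118_1I12_1893g (4236 nt) was at 92.8, 67.2 and 27.8 FPKM in replicates 1, 2 and 3 at 20 h, EC1118_1O4_2014g (4185 nt) at 66.5, 50.9 and 22.3 FPKM and EC1118_1I12_2421g (1908 nt) at 43.3, 36.6 and 14.2 FPKM. At 6 h the samples of these 3 loci were close together, at 4.94 to 5.81, 3.90 to 4.36 and 1.38 to 1.69 FPKM. The other 7 are EC1118_1J11_1398g, EC1118_1A20_0166g, EC1118_1K5_3763g, EC1118_1M3_0595g, EC1118_1I12_1233g, EC1118_1K5_3730g and EC1118_1D0_1673g. Of the 4 members over 4000 nt 3 are in this list. The fourth, EC1118_1O4_0265g (4029 nt), was high in replicate 3, at 33.2, 28.6 and 55.6 FPKM, so length did not go with a single direction.

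Loci with the opposite pattern, high in replicate 3, were led by EC1118_1N18_0243g (378 nt), at 25.2, 28.5 and 113 FPKM at 20 h. EC1118_1K5_1981g (2769 nt) was at 31.7, 24.9 and 78.1 FPKM, EC1118_1C17_0078g at 41.2, 48.5 and 113 FPKM and EC1118_1L7_0694g at 46.4, 37.9 and 93.3 FPKM. In these, replicates 1 and 2 stayed together and replicate 3 was apart. Replicate 3 also differed from replicates 1 and 2 across all loci, as its rho values show, and the part of that difference in these results was not tested.

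At 6 h replicate 1 was the lowest sample at 61.2% of the 85 members, against 42.9% of 821 other tagged loci with a 6 h mean above 0 and under 10 FPKM. The rule used these 6 h values and the other loci were not matched for level, so nothing is read from this difference. The median over the 85 was 4.34, 5.82 and 5.90 FPKM in replicates 1, 2 and 3. The median of all tagged loci was 31.8, 34.5 and 35.0 FPKM. EC1118_1K5_3763g was the most uneven at this time, at 1.61, 3.58 and 17.8 FPKM.

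The same rule was also applied to 2 replicates and read in the third, which it had not used. Selected without replicate 1 were 90 loci, of which 55 (61.1%) met all limits in replicate 1 alone; 2.49% of all tagged loci did. Without replicate 2 it was 51 of 112 (45.5%), against 1.46% of all, and without replicate 3 it was 58 of 97 (59.8%), against 2.41%. Between the 6 h and 20 h samples of the number left out, 80 of 90, 109 of 112 and 92 of 97 loci were higher at 20 h. Of all tagged loci 58.5%, 54.9% and 58.5% were. These samples share a number only, which was not taken to pair them. Most selected loci were thus higher at 20 h in the unused replicate, while the limits on level were met by 45.5% to 61.1%. The labels do not say whether the replicates are separate cultures, so the unused replicate may not be an independent check. Most tagged loci had a 6 h mean of 10 FPKM or more and could hardly meet the limits. The low shares of all tagged loci are therefore largely set by the rule, and nothing more is read from them. In the unused replicate 6, 2 and 5 of the selected loci were at 0 at 20 h.

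Members were longer than tagged loci at large. The median length was 1434 nt against 1089 nt, and 1521 nt for the 85. Loci under 1000 nt made up 28.3% of members and 45.7% of all tagged loci, and loci of 3000 nt or more 8.70% and 6.95%. The longest was EC1118_1K5_3730g (4677 nt), at 38.4, 35.1 and 19.7 FPKM at 20 h.

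Members made up 1.53% of all tagged loci. Among the 21 tag prefixes with 40 or more tagged loci, their share ran from 0 of 82 for 1H21 to 2 of 41 (4.88%) for 1D22. The prefix 1K5 (chromosome XI of the tables) had the most members, 11 of 305 (3.61%), of which 2 are among the 7 set apart. The prefix 1I12 (chromosome IX) had 7 of 219 (3.20%) and 1L7 had 1 of 283. These shares were not tested. Of the 92, 14 (15.2%) lay within 30 kb of the outermost locus end of their contig, against 10.9% of all tagged loci. Contigs are not whole chromosomes, so this is not a distance to a telomere.

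Another member lay within 10 kb of 22 members (23.9%), while 15.4% of the other tagged loci had a member within 10 kb. These 22 form 11 places, 2 of them the overlaps given above, whose levels cannot be told apart. At 1 more place EC1118_1K5_0639g, with 5.00 fragments at 20 h, lies beside EC1118_1K5_0650g. The share of 23.9% counts all of these and was not tested. Some places moved alike among replicates: EC1118_1K5_3730g and EC1118_1K5_3763g, 3810 nt apart, were in replicate 3 at 0.54 and 0.55 times the mean of replicates 1 and 2 at 20 h. EC1118_1O4_0199g and EC1118_1O4_0265g, 6751 nt apart, were both at 1.8 times it, 1.82 and 1.80. Others did not: EC1118_1F14_0595g was at 1.69 and EC1118_1F14_0639g, 5864 nt away, at 0.807. At the place 500 nt wide between EC1118_1K5_0331g and EC1118_1K5_0342g the factors were 1.44 and 0.841.

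Around EC1118_1D22_0309g the next locus was also far higher at 20 h. EC1118_1D22_0320g was at 7.39, 15.3 and 15.9 FPKM at 6 h and at 296, 273 and 325 FPKM at 20 h. It missed membership only by its 6 h mean of 12.8 FPKM. The member EC1118_1D22_0364g lies 6085 nt from EC1118_1D22_0309g and was at 2.54, 3.64 and 3.85 FPKM at 6 h and at 53.9, 47.7 and 55.2 FPKM at 20 h. Other loci here did not move alike: EC1118_1D22_0298g, before EC1118_1D22_0309g, was at 28.0 and 31.3 FPKM, and EC1118_1D22_0353g, just before EC1118_1D22_0364g, was at 83.7 and 23.3 FPKM.

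Some members sit beside a locus with a higher 20 h level. The cases here were picked after the values were seen, and how common this is among all loci was not counted. EC1118_1J19_1145g reached 14.8, 19.5 and 26.7 FPKM at 20 h, while the locus before it, EC1118_1J19_1134g, went from 45.1, 46.5 and 63.3 to 751, 975 and 2508 FPKM. In both loci replicate 3 was the highest 20 h sample. EC1118_1G1_4643g reached a mean of 46.1 FPKM beside EC1118_1G1_4632g, which went from 30.6 to 1022 FPKM. EC1118_1M3_1068g reached 37.3 FPKM beside EC1118_1M3_1079g, from 11.7 to 222 FPKM. EC1118_1I12_2421g has loci with higher levels on both sides, EC1118_1I12_2410g from 15.1 to 104 FPKM and EC1118_1I12_2432g from 20.1 to 82.5 FPKM, each lowest in replicate 3 at 20 h as the member is. Whether reads of the stronger locus reach into the member was not tested.

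Directly beside the 85 members were 161 loci that were not members, and 9 of these overlap the member. Of the 161, 51 (31.7%) had a ratio of at least 2 and 12 (7.45%) of at least 4, against 21.8% and 4.20% of all 5925 non-members. Their median log2 ratio was 0.39, against 0.23, and 48 of the 161 were lower at 20 h than at 6 h. From 2 to 5 loci away the medians ran from 0 to 0.38 with no steady fall: at 2 loci on the higher side the median was 0.38, and at 4 on the lower side 0.36. Most loci beside a member thus had a ratio under 2.

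**Figure D5:**
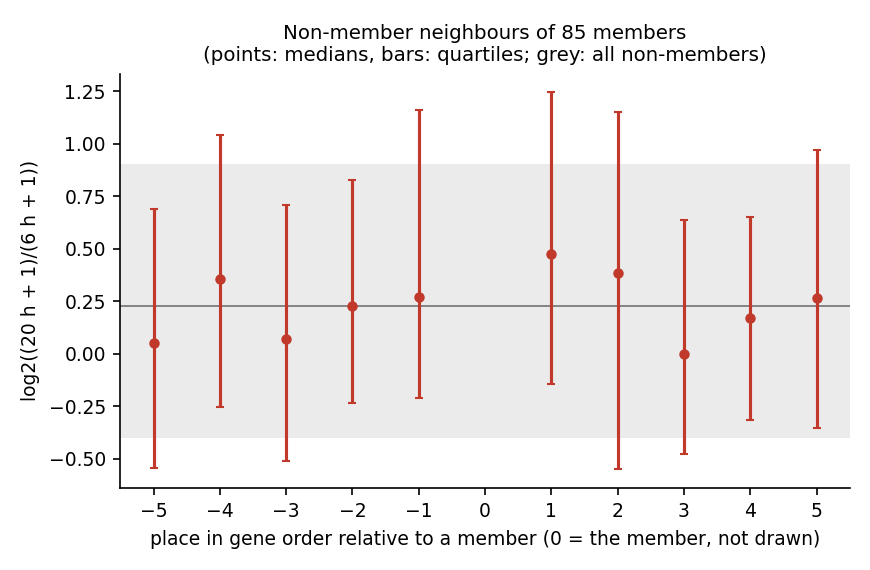
Change from 6 h to 20 h, as log2((20 h + 1)/(6 h + 1)), of non-member loci placed 1 to 5 loci away in gene order from the 85 members; points are medians, bars reach from the lower to the upper quartile, and the grey line and band are the median (0.23) and quartiles of all non-members. The upper quartiles beside the members reach 1.16 and 1.24, above that of all non-members, 0.90.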

How the data were processed

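Per the labels' protocols, acid phenol and chloroform gave total RNA, of which 1 μg was used for each TruSeq V2 RNA-Seq library. The submitters' processing notes list, with no roles, Cuffdiff 2.2.1.5, Cufflinks 2.2.1.2, TopHat2 2.0.8, FastQC 0.10.1 and Trim Galore 0.4.3.1. Genome build, annotation and strand setting: not given in the sources used here. Here the authors deposited 35 tables of FPKM for these samples, 3 to 13 per sample, which are Cufflinks tracking tables by their headers. How the tables of a sample differ is not stated. They were averaged to 1 value per sample, with 126 values marked LOWDATA or FAIL, 0 of them at members, treated as missing. Each table had equal weight, also 1 in replicate 1 at 6 h with 0.224 M fragments and 1 in replicate 2 with 0.082 M. These listed 25 and 44 of the 92 members at 0. At the 85 members the median CV between tables was 30.9%, 50.5% and 19.6% in replicates 1, 2 and 3 at 6 h. At 20 h it was 7.60%, 10.9% and 7.49%.

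For each value, fragments were recovered by dividing 2 times the FPKM by the gap between it and its upper bound, and squaring. Below 5.5 fragments a median of 76.0% came out whole in 33 tables (tolerance 0.02); in the other 2 tables, of replicate 3 at 6 h, at most 9.09% did, and their depth is unknown. All 6 h fragment numbers leave out these 2 tables, whose FPKM values still enter the means. Fragment numbers cover counting error only. Loci with a mean of at least 1 FPKM were tested for 20 h minus 6 h on log2(FPKM + 1), using limma 3.58.1 (R 4.3.3), a trend on mean level and Benjamini-Hochberg adjustment at 0.05; such fold changes understate low loci. P-values reflect the spread among these samples only, and that spread may be technical. The fit was tested on simulated data.

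Starts are given counting from 1: end minus start in the tables is a multiple of 3 for 96.9% of tagged loci, so the table's start counts from 0. Contigs named only by an identifier are called by their tag prefix. The reference at hand is of strain S288C, so sequences of these loci were not used here.

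The members, lists and limits were chosen with earlier results of these data known. Named members are the 10 highest at 20 h, the 10 largest ratios, those at 0 at 6 h, those next to a limit, those within 10 kb of another member, the most and least variable, and the longest and shortest. Loci adjacent to those of largest ratio are given for members outside the 7 set apart. The 7 members set apart, the loci high or low in replicate 3 and the other adjacent loci were named after their values were seen.

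Alternatives were other pseudocounts, filters, scaling, combining of tables, no trend, a replicate block, other limits and leaving out each sample.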

Additional observations from a re-analysis of the deposited data

How the results depend on the processing

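The count of loci meeting the rule was 58 with samples scaled to a common median ratio, all 58 among the 92. It was 40 with a 6 h limit of 5 FPKM, 41 with a ratio of at least 8, 47 with a 20 h limit of 40 FPKM, and 56 when every sample had to pass the limits; these are subsets by construction. With the median of the tables it was 99, of which 83 were among the 92. With single samples left out it ran from 83 to 104, members called higher from 86 to 89, members without overlap between times from 87 to 89, and all called loci from 2935 to 3433. Within 5 kb, 12 members had another member.

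Of 611 values for 44 named members under these alternatives, 567 moved by less than the spread between replicates, and 43 moved by more. The log2 change of EC1118_1K5_1585g was -0.21 without replicate 3 at 20 h and up to 3.37 with other samples left out, so this sample decides it. With the replicate block 3239 loci and 87 members were called, so the member count was the same. Deviations of same-numbered samples correlated at -0.12, 0.17 and 0.03, and the numbers were not taken to pair the samples. Depth limits the members under 200 nt, whose values rest on under 10 fragments at 20 h.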

Other observations

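Among the 444 loci without a tag ending in g, 1 met the same limits: EFG00000987867 (258 nt) was at 5.67, 12.04 and 7.75 FPKM in replicates 1, 2 and 3 at 6 h and at 64.6, 52.5 and 56.5 FPKM at 20 h.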
